A study of Mus musculus with 45 samples.

Results

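M1 polarization of bone marrow-derived macrophages was compared with the unstimulated M0 state in 30 of the 45 libraries of the series, 15 M0 and 15 M1. Members were taken by label: every library whose sample title ends in M1 against every library whose title ends in M0, paired by genotype and replicate number. The series text gives 5 mice per genotype, so each combination of genotype and number was taken as 1 mouse (15 mice). The mice were C57BL/6N littermates of 6 to 10 weeks, 5 each of the genotypes *Famin* p254I, *Famin* p254V and *Famin* p284R, lines engineered to express human FAMIN variants, so that M0 and M1 groups alike carried an engineered allele. Bone marrow was cultured with M-CSF for 6 days, which gives macrophages but no count of the other cells a culture still holds. M1 cells then received IFN-γ at 50 ng/mL together with LPS at 20 ng/mL for 24 h, so that the parts of the 2 stimuli cannot be told apart, and M0 cells received neither. The other 15 libraries, M2 cells of the same mice given 20 ng/mL IL-4, were used only to set levels of named genes beside those in M1.

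IFN-γ is made by T cells and natural killer cells and acts on macrophages through its receptor and the kinases JAK1 and JAK2. Many of its target genes carry GAS elements, among them those of IRF1 and further factors that bind interferon-stimulated response elements (ISRE). LPS, a component of the outer membrane of Gram-negative bacteria, is sensed by TLR4 with CD14 and MD-2 and acts through MyD88 and TRIF on NF-κB, MAP kinases and IRF3. Macrophages that receive both signals are the classically activated or M1 state, known for nitric oxide and itaconate production, antigen presentation, GTPases that act on intracellular pathogens, and chemokines that attract T cells.

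Depth was similar in both states. The libraries held between 17239009 and 43740283 counted reads, with medians of 27668438 in M0 and 27645651 in M1, so that 1 CPM, a read count scaled to library size, stands for between 17.2 and 43.7 reads. Levels are in CPM on library sizes scaled by TMM, and fold changes as log2 values, M1 minus M0, from edgeR's quasi-likelihood fit with the mouse as a block. Calls were made at an adjusted p under 0.05 over the 12044 genes tested. The state labels fitted the 4 markers chosen for M1, *Cxcl9*, *Nos2*, *Acod1* and *Gbp2b*, each of which was higher in every M1 library than in any M0 library. The macrophage genes *Adgre1* (F4/80), *Csf1r* and *Cd68* had medians of 3110, 3570 and 1980 CPM in M0 and 2180, 1660 and 885 CPM in M1. The first principal component held 86.2% of the variance and separated the states, with M1 libraries between 36.1 and 49.7.

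A pair of libraries stood apart within their state. The M0 library of p254I replicate 4 had a first-component score of -26.1, whereas the other 14 M0 libraries lay between -49.3 and -40.0. All 36 listed antiviral interferon-stimulated genes were higher in it than in any other M0 library, with a summed level of 11600 CPM against 2920 to 5580 CPM. *Irf7*, the interferon-induced interferon regulatory factor, had 1540 CPM there and 89.1 to 295 CPM in the other M0 libraries, and *Ccl5* had 564 CPM against 5.4 to 13.6 CPM. The M2 library of the same mouse had 287 CPM of *Ccl5* and 134 CPM of *Saa3*. Its levels of the antiviral genes *Isg15* and *Ifit2* were 32.8 and 51.3 CPM, against 159 and 972 CPM in the M0 library. The MHC class II list did not move with the antiviral genes in that M0 library, with 1 of 13 members above all other M0 libraries. In the M1 library of p254I replicate 5, 14 of 18 listed IL-4 genes were higher than in any other M1 library. Its level of *Arg1* (arginase 1) was 40.8 CPM and that of *Retnla* 49.1 CPM, against 0.256 to 0.912 CPM and 0 to 0.249 CPM in the other M1 libraries, while the M2 library of the same mouse had 801 CPM and 2820 CPM. *Cxcl9* and *Gbp2* in that M1 library lay within the range of the others. With both mice left out, 9655 genes were called, against 9759 with all 15 mice.

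**Figure D1:**
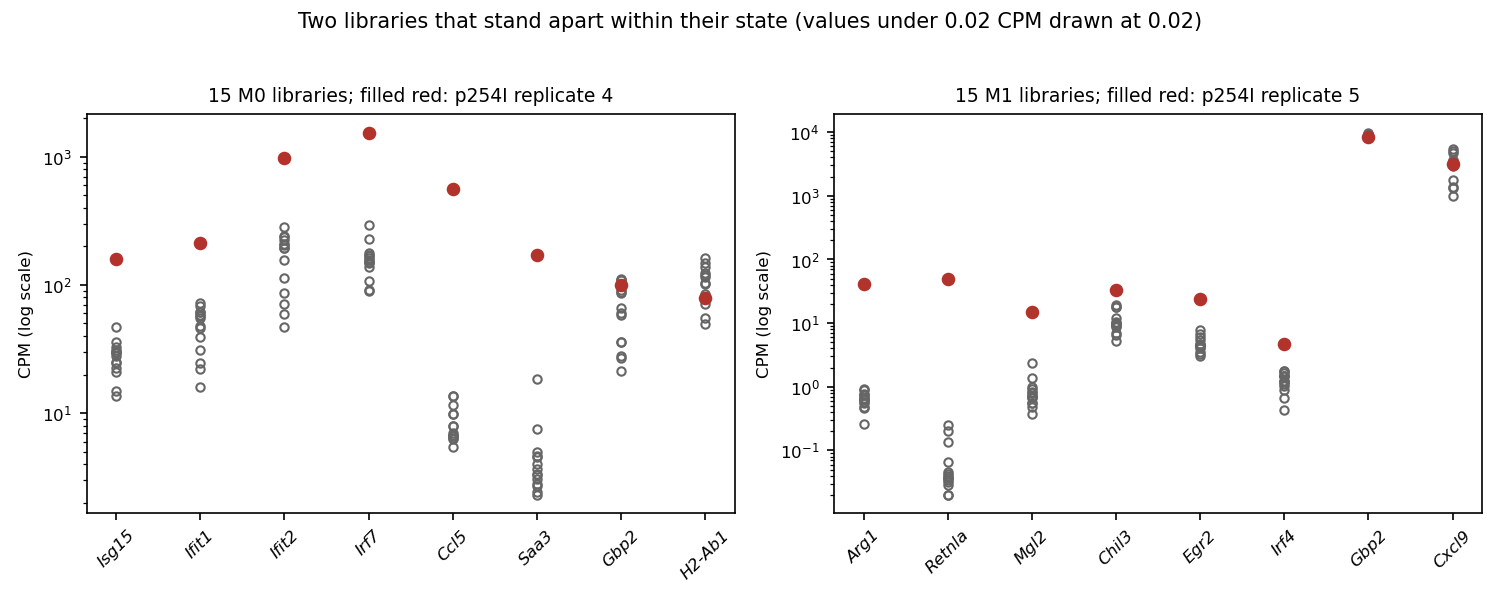
CPM on a log axis of 8 genes in the 15 M0 libraries (left) and 8 genes in the 15 M1 libraries (right), 1 circle per library. Filled red circles are p254I replicate 4 in M0, which lies above the others for *Isg15*, *Ifit1*, *Ifit2*, *Irf7*, *Ccl5* and *Saa3* but not for *Gbp2* or *H2-Ab1*, and p254I replicate 5 in M1, which lies above the others for *Arg1*, *Retnla*, *Mgl2*, *Chil3*, *Egr2* and *Irf4* but not for *Gbp2* or *Cxcl9*.

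M1 polarization changed most of the measured transcriptome, and a small share of it strongly. Of 12044 genes, 9759 were called (81.0%), 4746 higher (39.4%) and 5013 lower (41.6%) in M1. The median change was -0.02 and the median size of change, either way, 0.353, and 7427 of the called genes (76.1%) changed by less than 2-fold. At least 2-fold higher were 974 genes (8.09%) and at least 2-fold lower 1358 (11.3%), of which 919 and 1234 moved the same way in all 15 mice. At least 4-fold higher were 389 genes (3.23%) and at least 4-fold lower 513 (4.26%). A change of 32-fold or more was reached by 81 genes that rose and 28 that fell. Every M1 library lay above every M0 library for 1878 genes (15.6%) and below for 1728 (14.3%). Counts of list members called or without overlap, given below, are to be read beside these shares. Scaling to total counts alone, without TMM, shifted the median change by -0.093 and gave 3877 higher and 5931 lower calls, so that 39.5% of calls were higher instead of 48.6%.

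Risers and fallers differed in weight as well as in number. Genes at least 4-fold higher took 0.86% to 2.37% of the reads of M0 libraries (median 1.12%) and 11% to 13.4% (median 12%) of those of M1. Genes at least 4-fold lower went from a median of 4.13% of reads in M0 to 0.547% in M1. In absolute level the largest gains were those of *Gbp2*, *Cd74*, *B2m*, *Ctsc* and *Samhd1*, a guanylate-binding protein, the MHC class II invariant chain, the light chain of MHC class I, the dipeptidyl peptidase cathepsin C and a restriction factor that hydrolyses deoxynucleotides. The largest losses were those of *Lyz2* (lysozyme), *Ctsb* (cathepsin B), *Gpnmb* (a transmembrane glycoprotein of phagocytes), *Fth1* (ferritin heavy chain) and *Ctsd* (cathepsin D). *Ctsc* rose from a median of 334 CPM to 5130 CPM, whereas *Lyz2* fell from 17400 CPM to 5770 CPM.

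**Figure D2:**
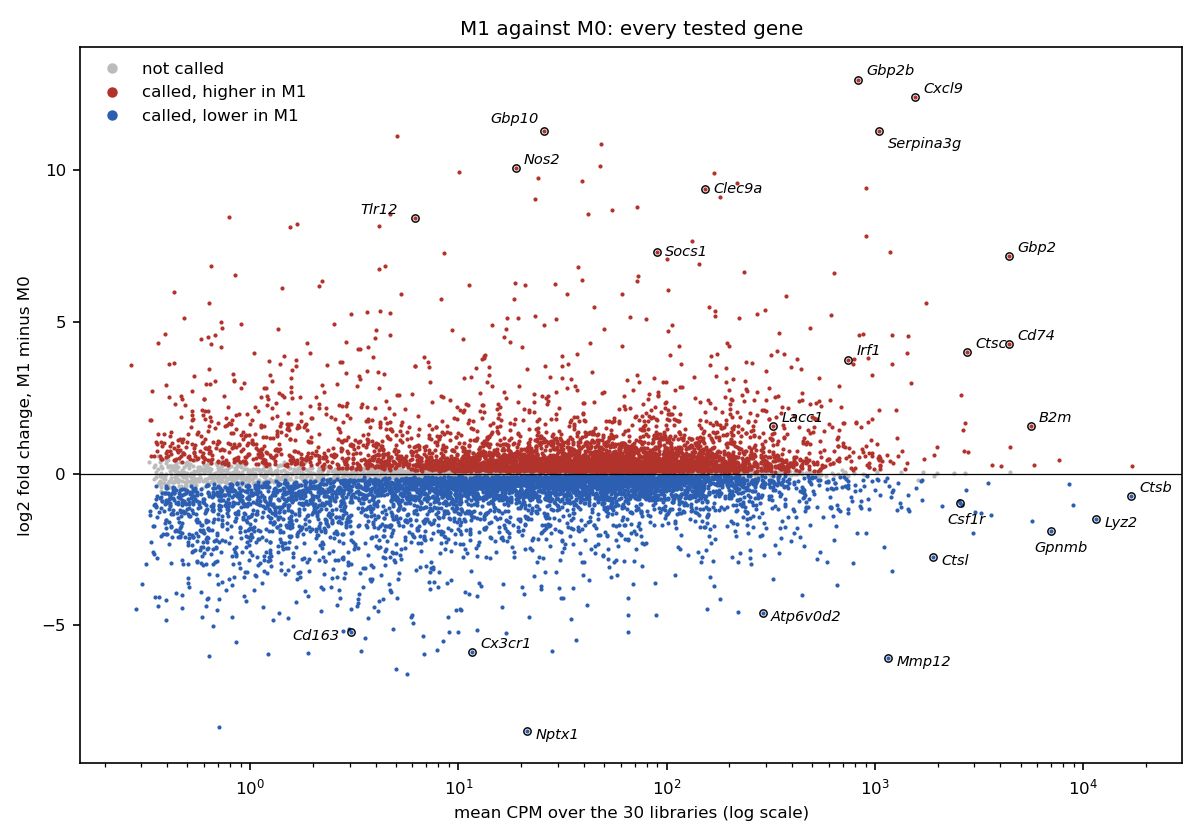
Log2 fold change (M1 minus M0) against mean CPM over the 30 libraries on a log axis, 1 point for each of the 12044 tested genes, red for called higher, blue for called lower and grey for not called. The largest changes are increases, led by *Gbp2b* and *Cxcl9* at 13 and 12.42, and the lowest labelled gene is *Nptx1* at -8.47.

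Genes that were nearly silent in M0 made up the strongest part of the response. *Gbp2b* (ENSMUSG00000040264, chromosome 3 from 142594847 to 142619179 in mm10) ranged from 0 to 0.549 CPM in M0 (median 0.167) and from 1280 to 2230 CPM in M1 (median 1610). No M1 library came near an M0 library, and M1 exceeded M0 by a log2 of 13 (SE 0.226, adjusted p = 5.53e-18). Adjusted p-values here are those of the quasi-likelihood test of edgeR after Benjamini-Hochberg correction. Each SE is the size of the log2 fold change divided by the square root of that test's F statistic. It does not measure the spread between mice. *Cxcl9*, a chemokine for T cells that carry CXCR3, ranged from 0.167 to 1.45 CPM in M0 (median 0.401) and from 978 to 5340 CPM in M1 (median 3260), a change of 12.42 (SE 0.337, adjusted p = 1.68e-15). *Serpina3g*, an inhibitor of cathepsins, went from a median of 0.684 to 2090 CPM, and its neighbour *Serpina3f* from 0.255 to 335 CPM. The Serpina3 genes are close copies of each other, so that reads may have been split between them.

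*Nos2*, the inducible nitric oxide synthase, was the least even of the strongest risers. It ranged from 0 to 0.157 CPM in M0, with a median of 0, and from 3.01 to 149 CPM in M1, with a median of 19.7. All 15 M1 libraries exceeded all M0 libraries, and the 3 highest M1 values belonged to p284R. It changed by 10.09 (SE 0.228, adjusted p = 4.96e-17). Its paired log2 differences, with 0.1 CPM added, ran from 4.96 in p254I replicate 2 to 10.54 in p284R replicate 4. *Acod1*, which makes itaconate, ranged from 1.44 to 8.18 CPM in M0 (median 3.34) and from 125 to 1340 CPM in M1 (median 319), a change of 6.64 (SE 0.348, adjusted p = 1.13e-11). Besides *Nos2*, the genes with the widest spread between mice among called genes of at least 10 CPM were *Saa3*, *Ccl5*, *Ly6i* and *Fpr2*.

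No read of *4933406J09Rik* was counted in any M0 library and 5.3 to 14.5 CPM in M1, which is at least 1510-fold higher than the 3 reads that a count of 0 over the 15 M0 libraries allows. This transcript is annotated on the strand opposite to *Bcl2l14*, which went from a median of 0.0442 to 48.5 CPM, and whether the counting used the strand is not stated. *Prm1*, which encodes a sperm protamine and lies beside *Socs1* on chromosome 16, was likewise without a read in M0 and had 0.74 to 2.56 CPM in M1, at least 237-fold higher. In the other direction *Dkk2*, a secreted antagonist of Wnt signalling, had 0.626 to 2.64 CPM in M0 and no read in M1, at least 186-fold lower. These floors and the counts behind them cover counting error only.

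**Figure D3:**
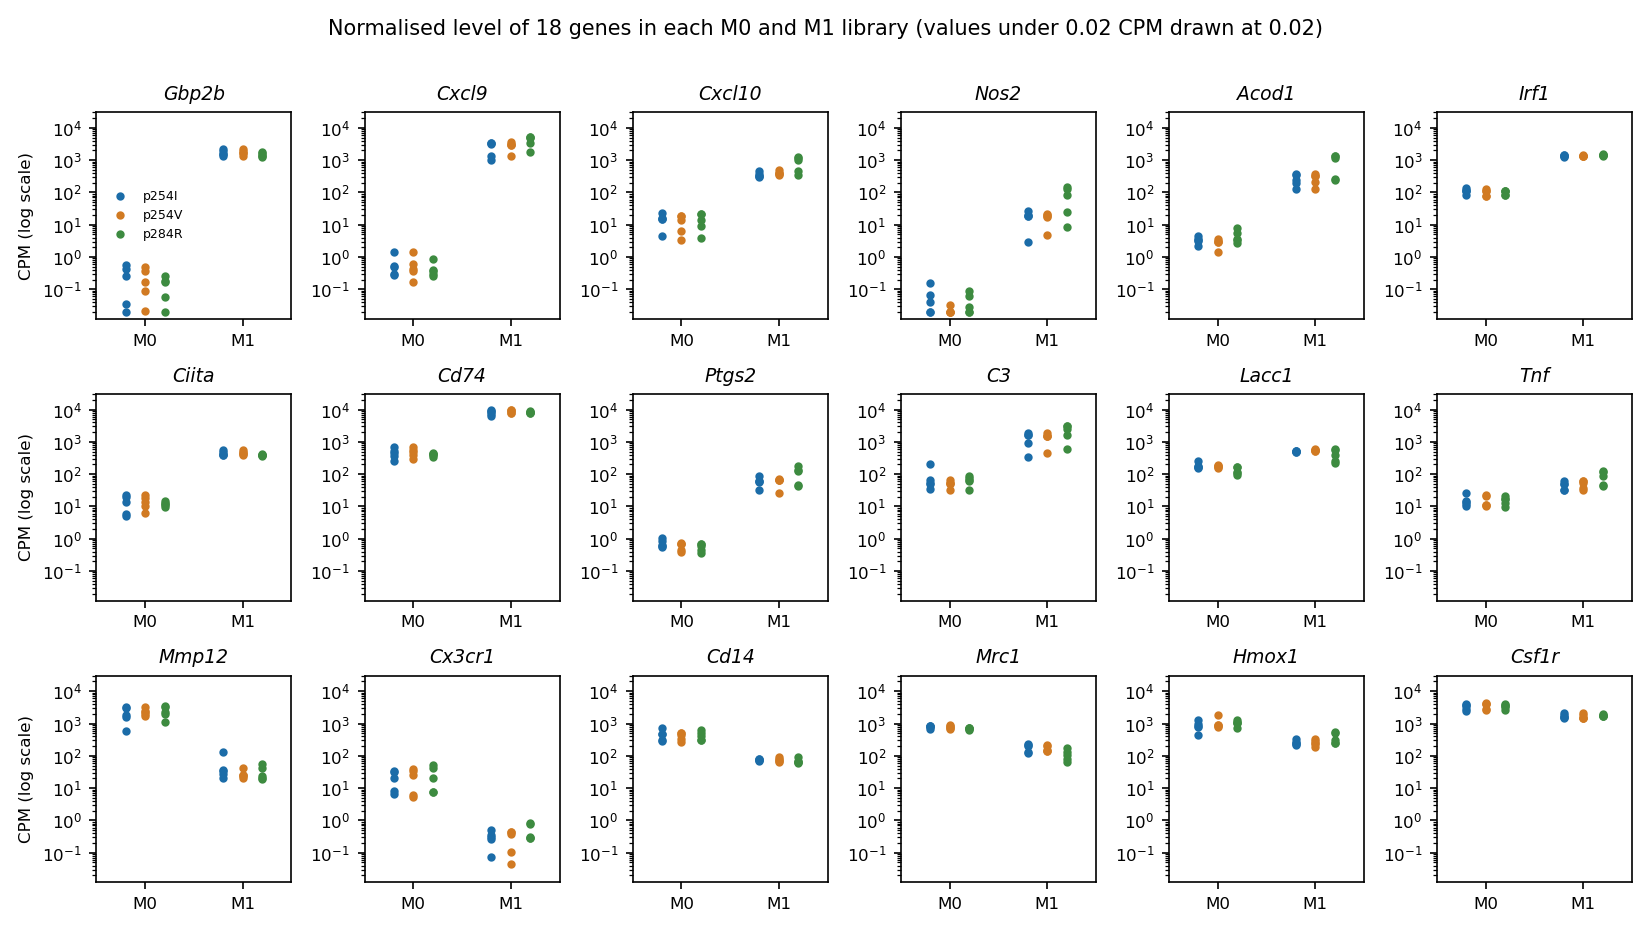
CPM on a log axis of 18 genes in each of the 15 M0 and 15 M1 libraries, 1 point per library, coloured by genotype. M0 and M1 points do not meet for 16 of the 18 genes, 11 of them higher and 5 lower in M1, and meet for *Lacc1*, whose lowest M1 library (218 CPM) falls below its highest M0 library (258 CPM), and for *Hmox1*.

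Guanylate-binding proteins, large GTPases that assemble on vacuoles and on bacteria in the cytosol, were the list that moved furthest. All 11 listed genes were tested and all 11 were called higher, with no overlap between the states and a median log2 fold change of 6.90, against -0.02 over all genes. Their summed level ranged from 89.1 to 375 CPM in M0 (median 223) and from 15200 to 17000 CPM in M1 (median 16000). *Gbp2* reached the highest level, 8030 to 9830 CPM in M1 from 21.2 to 112 CPM in M0, a change of 7.17 (SE 0.265, adjusted p = 1.02e-13). *Gbp10* had a median of 0 in M0 and 51.1 CPM in M1, a change of 11.30. *Gbp9* changed least, from a median of 41.5 to 363 CPM (3.14). The level in M1 was even across mice, while that in M0 was not: the M0 sum of the list was 258 to 314 CPM in the 3 mice numbered 1 and 89.1 to 102 CPM in those numbered 5.

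These genes lie in 2 clusters. On chromosome 3 from 142493978 to 142638008, *Gbp5*, *Gbp7*, *Gbp3*, *Gbp2b* and *Gbp2* are consecutive tested genes that changed by 3.96 to 13, and on chromosome 5 from 105014150 to 105346472 *Gbp8*, *Gbp9*, *Gbp4*, *Gbp10*, *Gbp6* and *Gbp11* changed by 3.14 to 11.30. RefSeq promoters were matched for the 5 genes on chromosome 3, and each holds an ISRE core (GAAA, any 2 bases and GAAA again, on either strand) within 250 bases upstream of the start, which 3.51% of the promoters of all tested genes do. The stretches around these matches show how alike they are, in GRCm38.p6 on the strand of the gene, 5′ to 3′. Capitals mark an ISRE core, on these promoters in the orientation TTTC, any 2 bases, TTTC, or a GAS element (TTCNNNGAA).
Gbp2b, chr3:142594687-142594746: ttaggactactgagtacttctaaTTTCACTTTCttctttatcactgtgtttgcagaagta
Gbp2, chr3:142620573-142620632: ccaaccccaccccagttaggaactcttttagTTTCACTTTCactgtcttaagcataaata
Gbp3, chr3:142559974-142560033: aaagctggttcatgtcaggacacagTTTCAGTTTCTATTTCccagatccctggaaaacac
Gbp7, chr3:142530216-142530305: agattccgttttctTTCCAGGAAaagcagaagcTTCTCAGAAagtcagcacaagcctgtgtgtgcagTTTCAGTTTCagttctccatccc
Gbp5, chr3:142496744-142496903: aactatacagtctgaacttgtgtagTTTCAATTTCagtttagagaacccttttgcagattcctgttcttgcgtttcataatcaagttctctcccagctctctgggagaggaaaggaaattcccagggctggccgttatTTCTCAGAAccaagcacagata
*Gbp2b* and *Gbp2* share the 10 letters TTTCACTTTC, and in *Gbp3* a pair of cores overlap. *Gbp7* and *Gbp5* also hold GAS elements, which 7.11% of all tested promoters do. A match describes the sequence and is not evidence of binding.

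Immunity-related GTPases, which act with the guanylate-binding proteins on pathogen vacuoles, rose in 14 of 15 tested cases and fell in 1. Their median of 4.20 lay below the 6.90 of those proteins, and the summed level went from 263 to 1200 CPM in M0 to 7430 to 9120 CPM in M1. The highest M0 value came from p254I replicate 4, and the other 14 M0 libraries had 263 to 567 CPM. *Gm4841* rose from a median of 0.0342 to 102 CPM (10.86, SE 0.139, adjusted p = 2.5e-20) and *Tgtp1* from 0.0442 to 99 CPM (10.16). *Irgm1*, a regulator of the family, rose from 122 to 1750 CPM (3.83) and *Igtp* from 32.1 to 1240 CPM (5.23). *Irgq* was the exception and fell from 35.5 to 28.8 CPM (-0.33). *Tgtp1* and *Tgtp2* are close copies, so that their separate values are uncertain.

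All 36 listed antiviral interferon-stimulated genes were called higher, 33 of them by at least 2-fold, with a median of 1.87. Their groups overlapped more often than those of the GTPases: in 15 of 36 genes the lowest M1 library exceeded the highest M0 library, which was p254I replicate 4 for all 36. *Ifit2*, which binds foreign RNA, ranged from 46.6 to 972 CPM in M0 (median 194) and from 1640 to 3270 CPM in M1 (median 2600), a change of 3.98 (SE 0.303, adjusted p = 1.8e-09) that was 4.14 without p254I replicate 4. *Ifi44* changed by 4.29, *Mx1* by 3.51 and *Isg15*, the ubiquitin-like modifier, by 3.48. At the low end were *Oas2* (0.55) and *Trim25* (0.26). All 36 were also called without p254I replicates 4 and 5. In the 3 mice numbered 4 alone, which include p254I replicate 4, 11 of 36 were called, and in the 3 mice of any other number all 36 were.

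Receptors and signalling proteins for both stimuli changed less and in both directions. Of 23 tested members, 12 rose, 5 fell and 6 were not called, with a median of 0.10. Over all tested genes 39.4% rose and 41.6% fell. Scaled to total counts alone the split was 10 and 10. *Ifngr1*, the ligand-binding chain of the IFN-γ receptor, ranged from 253 to 371 CPM in M0 (median 309) and from 170 to 248 CPM in M1 (median 212). The states did not overlap, with a change of -0.56 (SE 0.0401, adjusted p = 2e-10). *Ifngr2* had medians of 156 and 162 CPM (adjusted p = 0.312). *Tlr4*, the LPS receptor, had medians of 157 CPM in M0 and 209 CPM in M1 and changed by 0.39 (SE 0.0357, adjusted p = 8.48e-09). Its co-receptor *Cd14* fell from a median of 427 CPM to 72.9 CPM, a change of -2.50 (SE 0.113, adjusted p = 1.13e-12), and *Ly96*, which encodes MD-2, had 22.1 and 21.4 CPM (adjusted p = 0.0762). Within the pathway the adaptor *Myd88* rose from 98.1 to 232 CPM (1.21) and *Jak2* from 57.8 to 135 CPM (1.30), while *Jak1* fell from 356 to 287 CPM (-0.21).

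Over the STAT, IRF and NF-κB list of transcription factors 12 of 20 members rose, 2 fell and 6 were not called. Scaled to total counts alone 11 rose and 7 fell. *Irf1* ranged from 77.6 to 136 CPM in M0 (median 109) and from 1250 to 1510 CPM in M1 (median 1380). It was among the most even responses, with a change of 3.76 (SE 0.0665, adjusted p = 6.92e-19). *Irf7* rose from 155 to 2360 CPM (3.63, and 3.81 without p254I replicate 4), while *Irf8* and *Stat3* rose by 1.81 each. *Rela*, *Rel*, *Nfkb2* and *Relb* were not called, with log2 fold changes between -0.13 and -0.03. Scaled to total counts alone all 4 were called lower, at -0.23 to -0.12. In p284R replicates 3, 4 and 5 *Relb* was higher in M1, by 0.33 to 0.83, against -0.62 to 0.13 in the other mice. *Nfkb2* was likewise higher there, by 0.24 to 0.78, against -0.64 to 0.02, while *Rela* and *Rel* stayed between -0.10 and 0.19. The cause was not tested. *Nfkb1* rose by 0.38. *Irf4*, which acts in the IL-4 response, fell from 8.47 to 1.24 CPM (-2.57) and *Stat4* (-0.98).

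Inhibitors of these pathways included some of the strongest risers. *Socs1*, which blocks JAK kinases, ranged from 0.575 to 2.04 CPM in M0 (median 1.08) and from 138 to 217 CPM in M1 (median 182), a change of 7.31 (SE 0.116, adjusted p = 8.64e-19). *Socs3* rose from 1.64 to 23.1 CPM (3.79), *Usp18*, which removes ISG15 and restrains the type I interferon receptor, from 28.1 to 202 CPM (2.86), and *Il18bp*, which binds IL-18, from 38.8 to 483 CPM (3.65). Over the list 13 of 22 members rose and 4 fell, with a median of 0.29. Inhibitors of NF-κB and Toll-like receptor signalling moved less: *Tnfaip3* (A20) by 0.39 and *Nfkbia* (-0.01) (adjusted p = 0.917), while *Irak3* fell (-0.63) and *Dusp1* (-0.50). In p284R replicates 3, 4 and 5 *Nfkbia* rose by 0.58 to 1.08, against -0.50 to -0.03 in the other mice. *Tnfaip3* rose there by 1.13 to 1.24, against -0.27 to 0.91 in the other mice. The promoters of *Irf1* and *Socs1* are shown because both genes sit early in the interferon pathway and their motifs differ. In *Irf1* the capitals mark a GAS element and a κB consensus, and in *Socs1* a pair of overlapping ISRE cores.
Irf1, chr11:53769894-53770013: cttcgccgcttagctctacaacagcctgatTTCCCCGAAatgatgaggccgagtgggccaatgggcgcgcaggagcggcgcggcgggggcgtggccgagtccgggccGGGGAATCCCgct
Socs1, chr16:10785577-10785646, minus strand: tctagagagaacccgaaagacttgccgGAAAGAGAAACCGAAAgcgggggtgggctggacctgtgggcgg
The κB consensus occurs in 10.5% of all tested promoters.

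MHC class I presentation rose as a whole. All 19 tested genes of the list were called higher, 15 by at least 2-fold and with a median of 2.19, and their summed level rose from a median of 10600 to 28000 CPM. *B2m*, the light chain of every class I molecule, ranged from 2280 to 5070 CPM in M0 (median 2730) and from 7500 to 9330 CPM in M1 (median 8220), a change of 1.57 (SE 0.0707, adjusted p = 2.15e-13). The lowest M1 library exceeded the highest M0 library, which was p254I replicate 4. *Nlrc5*, the transactivator of class I genes, rose from 60.7 to 431 CPM (2.72). The peptide transporter genes *Tap1* and *Tap2* rose by 3.14 and 2.69 and *Tapbp*, which encodes tapasin, by 2.12. *Tap1* overlaps *Psmb9* on the opposite strand. The H2-Q genes changed more than the classical *H2-K1* (1.68) and *H2-D1* (0.89), up to 4.32 for *H2-Q6*, but their sequences are so alike that reads may be shared.

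The proteasome changed in both of its forms. *Psmb8*, *Psmb9* and *Psmb10*, the catalytic subunits of the immunoproteasome, rose by 2.65, 2.53 and 2.44, and *Psme1* and *Psme2*, which form its PA28 cap, by 2.07 and 2.48. All 14 constitutive core subunits tested also rose, with a median of 0.92, led by *Psma5* (1.35), and *Psmb6*, a catalytic subunit that is replaced in the immunoproteasome, rose least (0.12, adjusted p = 0.00124). The *B2m* promoter holds an ISRE core, a κB consensus and an inverted CCAAT box (ATTGG), marked in capitals.
B2m, chr2:122147537-122147656: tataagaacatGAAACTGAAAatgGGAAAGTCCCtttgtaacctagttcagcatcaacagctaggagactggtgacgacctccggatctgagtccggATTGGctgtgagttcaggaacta
Of the 15 class I genes with a matched promoter, 9 held a κB consensus (60.0%) and 14 a CCAAT box (93.3%), which occurs in 40.8% of all tested promoters.

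MHC class II presentation rose further, from a lower level. Of 12 tested members 11 rose and 1 fell, with a median of 4.16. *Ciita*, the master regulator of class II genes, ranged from 5.19 to 23.1 CPM in M0 (median 12.6) and from 352 to 569 CPM in M1 (median 426), a change of 5.14 (SE 0.164, adjusted p = 1.5e-14). *Cd74* ranged from 252 to 692 CPM in M0 (median 425) and from 6260 to 9680 CPM in M1 (median 8310), a change of 4.27 (SE 0.0934, adjusted p = 1.14e-17). *H2-Ab1*, *H2-Aa* and *H2-Eb1*, the classical chains, rose by 4.58, 4.55 and 4.62, and *H2-DMa*, which loads peptides, by 4.04. Both proteases of the list that trim the invariant chain moved little or the other way, with *Ctss* at 0.28 and *Ctsl* at -2.73. With *Psmb8*, *Psmb9*, *Tap1* and *Tap2*, the class II genes form the longest run of neighbours, 12 consecutive tested genes on chromosome 17 from 34119541 to 34316674 that each rose by at least 4-fold.

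Ligands for T cells rose with them. Of 12 tested costimulatory and checkpoint genes 9 rose, 1 fell and 2 were not called, with a median of 1.19. *Cd86* rose from a median of 22.8 to 338 CPM (3.95, SE 0.13, adjusted p = 2.04e-14) and *Cd40* from 12.4 to 68.1 CPM (2.67). *Cd274*, which encodes PD-L1, rose from 104 to 1420 CPM (3.79) and *Pdcd1lg2*, which encodes PD-L2, from 0.334 to 6.48 CPM (4.19). The adhesion molecule *Icam1* rose from 98.1 to 554 CPM (2.57). *Cd80* changed by 0.39, and *Vsir*, an inhibitory ligand, fell (-0.45).

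Chemokines moved in both directions. Among 11 tested CXC and CX3C chemokines, the 3 ligands of CXCR3 were the strongest risers, *Cxcl9* at 12.42, *Cxcl11* at 9.95 (10.83 without p284R replicate 2) and *Cxcl10* at 5.27, and *Cxcl16* rose by 0.44. The other 7 members fell, with *Cxcl1* at -4.11 and *Cxcl2* at -1.48, both attractants of neutrophils, *Pf4* at -2.76 and *Cxcl14* at -3.56, and the list median was -1.48. *Cxcl10* ranged from 3.25 to 22.5 CPM in M0 (median 14.5) and from 309 to 1220 CPM in M1 (median 393), and the states did not overlap (SE 0.332, adjusted p = 1.39e-10). Its promoter is shown for its combination of an ISRE core and several κB matches, in capitals.
Cxcl10, chr5:92348970-92349119, minus strand: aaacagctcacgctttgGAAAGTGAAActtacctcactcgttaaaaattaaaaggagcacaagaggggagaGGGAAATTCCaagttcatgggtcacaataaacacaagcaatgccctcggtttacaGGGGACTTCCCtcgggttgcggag
The last run of capitals is a pair of overlapping κB matches.

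CC chemokines were mixed, with 6 of 11 tested members higher, 4 lower and 1 not called. *Ccl5* ranged from 5.4 to 564 CPM in M0 (median 7.88) and from 93.3 to 1280 CPM in M1 (median 737). The states overlapped only through the M0 library of p254I replicate 4, without which M0 did not exceed 13.6 CPM. The change was 5.87 (SE 0.518, adjusted p = 1.32e-08), and 6.12 without that mouse. *Ccl8* rose from a median of 1.76 to 111 CPM (5.91) and *Ccl12* from 0.957 to 42.8 CPM (5.20), while *Ccl2* and *Ccl7*, which attract monocytes, rose by 0.88 and 0.96. The fallers included *Ccl9*, from 883 to 126 CPM (-2.82), *Ccl3* (-1.66) and *Ccl4* (-0.31).

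Chemokine receptors mostly fell, 6 of 9 tested members, with a median of -1.20. *Cx3cr1*, the fractalkine receptor, ranged from 5.26 to 50.7 CPM in M0 (median 20.5) and from 0.0457 to 0.853 CPM in M1 (median 0.304), a change of -5.88 (SE 0.207, adjusted p = 2.95e-14). *Ccr3* fell (-4.77) and *Cxcr4* (-4.64), from a median of 130 to 4.87 CPM. *C5ar1*, the receptor for the complement fragment C5a, fell from 623 to 142 CPM (-2.11). *Ccrl2* and *Ccr2* rose, by 1.79 and 1.16.

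Cytokine transcripts were modest at 24 h. Of 15 tested genes 9 rose, 3 fell and 3 were not called, with a median of 0.89. *Il27* rose from 0.62 to 17.7 CPM (4.73, SE 0.13, adjusted p = 2.49e-16) and *Tnfsf10*, which encodes TRAIL, from 7.47 to 112 CPM (4.21). *Tnf* ranged from 9.51 to 26 CPM in M0 (median 13.4) and from 31.5 to 128 CPM in M1 (median 50.8), a change of 1.88 with no overlap. *Il1b* had medians of 1.64 and 4.86 CPM (1.30) and *Il10* 4.05 and 7.51 CPM (0.89). Transcripts often used as M1 readouts were too few to test: *Il6* had 9 reads over the 15 M0 and 37 over the 15 M1 libraries, *Il12b* 17 and 36, *Il12a* 0 and 3, and *Il23a* 6 and 4. *Tgfb1* fell from 355 to 214 CPM (-0.70) and *Osm* (-0.80).

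Pattern recognition receptors moved in both directions, 16 of 25 higher and 8 lower. *Tlr12*, a receptor for profilin, rose from a median of 0.0209 to 12.6 CPM (8.43, SE 0.19, adjusted p = 1.25e-17), its partner *Tlr11* from 0.49 to 36 CPM (6.30) and the DNA sensor *Tlr9* from 47.6 to 343 CPM (3.03). *Tlr7* and *Tlr8* fell, from 215 to 88.1 CPM (-1.36) and from 372 to 233 CPM (-0.73), as did the lectins *Clec4d* (-3.48) and *Clec7a* (-1.08), the β-glucan receptor. The peptidoglycan sensors *Nod1* and *Nod2* rose by 2.62 and 2.03. *Marco*, a scavenger receptor for bacteria, overlapped between states and changed by 1.28 (SE 0.324, adjusted p = 0.00169), with means over the 3 mice of each number from -1.06 (number 2) to 2.44 (number 5).

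Inflammasome genes rose in 12 of 14 cases, with a median of 0.85. *Casp4*, the receptor for cytosolic LPS, rose from 30.9 to 126 CPM (2.01), *Casp1* from 135 to 483 CPM (1.81), the DNA sensor *Aim2* by 1.44, the pore former *Gsdmd* by 1.28 and *Nlrp3* from 68.7 to 139 CPM (1.01). *Mefv*, which encodes pyrin, fell (-0.50) and *Naip5*, a flagellin sensor, by -0.19.

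Among 21 effector genes of nitric oxide, superoxide and antimicrobial defence, 13 rose and 7 fell. Around *Nos2*, *Ass1*, which renews its substrate arginine, rose from 3.41 to 41 CPM (3.57, SE 0.134, adjusted p = 8.96e-14), while *Asl*, the next enzyme of that route, fell from 56.3 to 44.2 CPM (-0.36), and *Gch1*, which makes its cofactor, was not called (0.17, adjusted p = 0.0691). The NADPH oxidase genes *Cybb* and *Ncf1* rose by 0.47 and 0.38 and *Ncf4* fell (-0.37). *Ido1*, the tryptophan-degrading enzyme, stayed low, at 0.582 to 4.56 CPM in M1 (6.56). *Lyz2* fell (-1.50). Complement genes rose in 10 of 12 cases, with a median of 1.92. *C3* rose from a median of 54.4 to 1570 CPM (4.59, SE 0.336, adjusted p = 1.08e-09), *C4b* from 0.818 to 77.2 CPM (6.38) and *Cfb* from 0.133 to 16.5 CPM (5.75). The M0 library of p254I replicate 4 had 2.67 CPM of *Cfb* against at most 0.465 CPM in the others, and without that mouse the change was 6.46.

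Of 13 tested eicosanoid synthesis genes 7 rose and 5 fell, beside 39.4% and 41.6% of all tested genes. *Ptgs2*, the inducible cyclooxygenase, ranged from 0.372 to 1.06 CPM in M0 (median 0.616) and from 26.1 to 172 CPM in M1 (median 63.9), a change of 6.81 (SE 0.149, adjusted p = 6.5e-17). *Pla2g4a*, which releases arachidonic acid, rose from 16.9 to 156 CPM (3.16). *Alox5* and *Ltc4s*, which act in leukotriene synthesis, fell (-1.01 and -2.44). *Hpgd*, which degrades prostaglandins and is not in the list, fell from 19.6 to 0.481 CPM (-5.21).

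The 10 strongest fallers were *Nptx1*, *Pde1c*, *Mmp12*, *Lama3*, *Cx3cr1*, *Mamdc2*, *Tox2*, *Samd4*, *Fabp4* and *Rhoj*. *Nptx1*, a secreted pentraxin, ranged from 13.6 to 95.8 CPM in M0 (median 30.8) and from 0 to 1.49 CPM in M1 (median 0.0375), a change of -8.47 (SE 0.273, adjusted p = 1.67e-14) that was -9.63 without p254I replicate 5. *Mmp12*, the macrophage elastase, ranged from 581 to 3600 CPM in M0 (median 2290) and from 19.7 to 135 CPM in M1 (median 25.4), a change of -6.08 (SE 0.27, adjusted p = 1.23e-12). Its lowest M0 library was p254I replicate 4 and its highest M1 library p254I replicate 5. With *Mmp10*, *Mmp8* and *Mmp27*, it forms the only run of 4 or more neighbouring tested genes that each fell by at least 4-fold, on chromosome 9 from 7344381 to 7581885, with changes from -6.08 to -3.97. Among other strong fallers *Bmp2* went from 21.3 to 0.532 CPM (-5.14) and *S1pr1*, a receptor for sphingosine 1-phosphate, from 131 to 3.32 CPM (-5.21). Since whole cultures were sequenced, fewer cells of a kind and less RNA per cell cannot be told apart for any gene that fell.

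Genes of the IL-4 response fell in M1, 8 of 14 tested, with 3 higher, 3 not called and a median of -1.58. *Mrc1*, the mannose receptor, ranged from 643 to 903 CPM in M0 (median 748) and from 65.5 to 238 CPM in M1 (median 144), a change of -2.38 (SE 0.118, adjusted p = 3.9e-12). *Egr2* fell from 53.2 to 4.59 CPM (-3.25). *Mgl2* and *Chil3* had changes of -0.42 and -0.49 that were not called (adjusted p = 0.257 and 0.0802). *Arg1* was called higher at 1.55 (SE 0.559, adjusted p = 0.0176), with medians of 0.278 and 0.653 CPM, and the change was 0.98 without p254I replicate 5. Left out of the fit, the mice of p254I numbered 4 and 5 raised the fallers of this list from 8 to 10.

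Receptors for debris and lipids fell in 12 of 19 cases, 11 by at least 2-fold and with a median of -1.25. *Cd163*, which takes up haemoglobin, fell from 5.78 to 0.115 CPM (-5.21), *Colec12* from 58.3 to 3.56 CPM (-4.09), *Stab1* from 1360 to 178 CPM (-2.94) and *Trem2* from 1320 to 333 CPM (-1.95, SE 0.0912, adjusted p = 7.98e-13). *Gas6*, a bridge to apoptotic cells, fell from 420 to 58.4 CPM (-2.97), while its receptors differed, *Axl* higher at 0.84 and *Mertk* not called (0.13, adjusted p = 0.368). Fc receptors rose in 5 of 6 cases, led by *Fcgr4* from 127 to 1450 CPM (3.61) and *Fcgr1* (1.66), and the inhibitory *Fcgr2b* fell from 171 to 113 CPM (-0.60).

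Macrophage identity genes fell in 10 of 14 cases, with a median of -0.96. *Csf1r*, the receptor for M-CSF, ranged from 2400 to 4180 CPM in M0 (median 3570) and from 1470 to 2170 CPM in M1 (median 1660), a change of -0.96 (SE 0.0524, adjusted p = 3.42e-12). *Cebpa*, a myeloid transcription factor, fell from 205 to 37.5 CPM (-2.49) and *Maf* from 206 to 79.2 CPM (-1.29). *Aif1* (IBA1) rose from 94.1 to 558 CPM (2.54), and *Spi1*, which encodes PU.1, rose by 0.37.

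**Figure D4:**
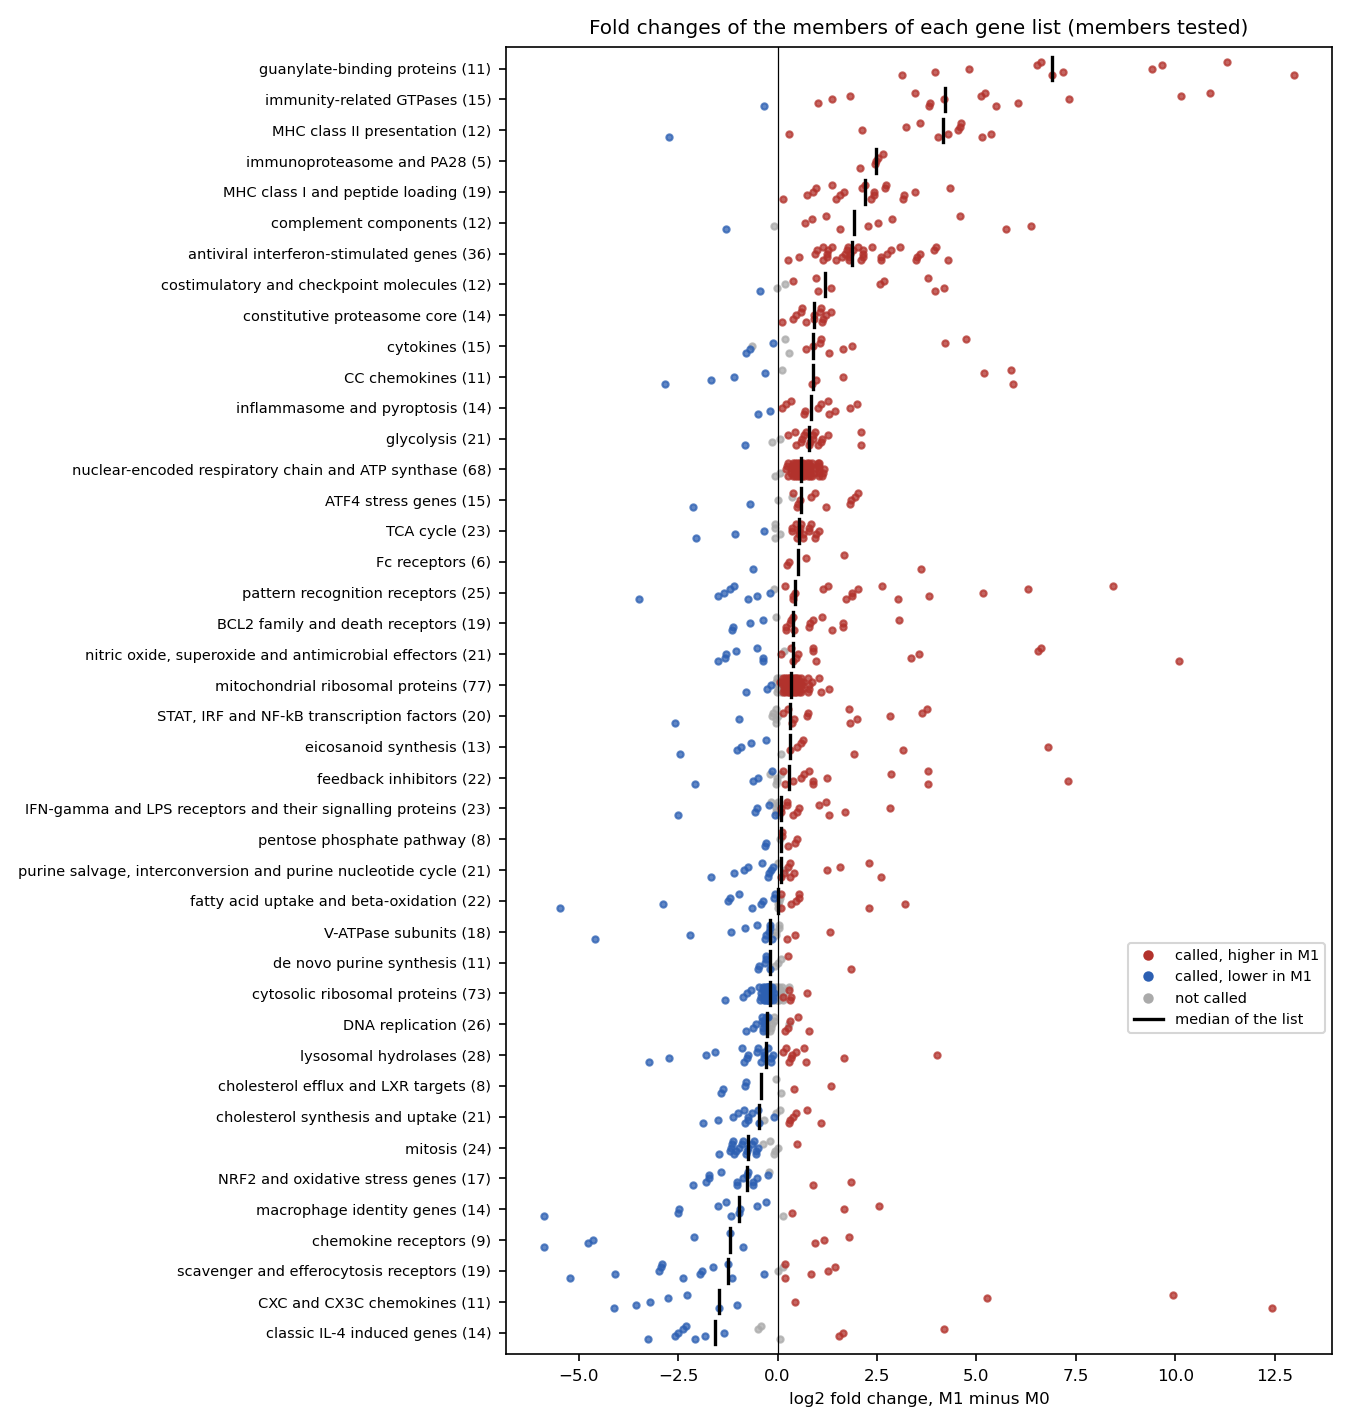
Log2 fold change (M1 minus M0) of each tested member of 42 gene lists, 1 point per gene, with the number of members in brackets and the list median as a black line, sorted by median. The guanylate-binding proteins lie furthest to the right (median 6.90) and the classic IL-4 genes furthest to the left (-1.58), and lists such as the chemokines hold members far out on both sides.

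Energy metabolism genes rose broadly and by small amounts. In glycolysis 18 of 21 tested members rose and 1 fell, with a median of 0.79. *Hk3* rose from a median of 485 to 2070 CPM (2.11, SE 0.0619, adjusted p = 4.44e-16), *Pfkp* from 106 to 466 CPM (2.10), *Pfkfb3*, which makes the activator of phosphofructokinase, from 42.3 to 122 CPM (1.27) and the glucose transporter gene *Slc2a1* from 44.3 to 74.2 CPM (0.89), while *Slc2a3* fell from 12.1 to 6.3 CPM (-0.82). The paired differences of *Pfkfb3* were 0.52 to 0.77 in mice numbered 1 and 2 and 1.46 to 2.02 in those numbered 3, 4 and 5. Of 68 nuclear genes of the respiratory chain and ATP synthase 66 rose and none fell, with a median of 0.60, 10 of them by at least 2-fold, led by *Cox5a* from 100 to 226 CPM (1.18) and *Ndufs3* (1.14). In 55 of the 68, every M1 library lay above every M0 library, which held for 15.6% of all tested genes. Without scaling by TMM 64 rose and 1 fell.

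Of 23 tested members of the TCA cycle list, which also holds NADP-dependent isocitrate dehydrogenases, 16 rose and 3 fell, with a median of 0.54. The strongest fallers of the list were these NADP-dependent genes, *Idh1* and *Idh2*. *Idh1* ranged from 250 to 614 CPM in M0 (median 451) and from 88.9 to 139 CPM in M1 (median 107), a change of -2.04 (SE 0.0912, adjusted p = 5.56e-13), and *Idh2* fell from 84.9 to 40.9 CPM (-1.08). The NAD-dependent subunit gene *Idh3b* rose by 0.79, *Cs* by 0.80 and the succinate dehydrogenase genes *Sdhb* and *Sdhd* by 0.97 and 1.05. The fallers numbered 5 without p254I replicate 4 and 6 when scaled to total counts alone. In the pentose phosphate pathway no member changed by 2-fold, with *Pgd* at -0.28, *Taldo1* at -0.33 and *Shpk*, which phosphorylates sedoheptulose, at 0.48.

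Of 22 tested genes of fatty acid uptake and β-oxidation 8 rose and 10 fell, close to the 39.4% and 41.6% of all tested genes. The median of 0.02 changed sign (-0.07) without TMM. *Fabp4* and *Fabp5*, which carry fatty acids in the cytosol, fell from 58.2 to 1.23 CPM (-5.47) and from 244 to 37.5 CPM (-2.88), and the fatty acid receptor *Cd36* from 4510 to 1700 CPM (-1.25, SE 0.0832, adjusted p = 9.09e-11). *Acsl1* rose from 60.2 to 256 CPM (2.30) and *Ppargc1b* from 2.25 to 20.1 CPM (3.20). In p284R replicates 3, 4 and 5 *Acsl1* rose by 3.28 to 3.75, against 1.75 to 2.34 in the other mice. Cholesterol synthesis genes fell in 12 of 21 cases and rose in 6, with a median of -0.47. *Sqle* fell from 28 to 9.5 CPM (-1.49), whereas *Pmvk* rose from 14.9 to 31.2 CPM (1.10). Of the cholesterol exporters *Abca1* fell from 861 to 282 CPM (-1.43) and *Abcg1* rose from 274 to 712 CPM (1.35), without overlap in either case.

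Purine genes are the setting of the study, whose enzyme FAMIN is encoded by *Lacc1*. *Lacc1* (ENSMUSG00000044350, chromosome 14 from 77024200 to 77036904) ranged from 91.8 to 258 CPM in M0 (median 167) and from 218 to 598 CPM in M1 (median 523). It was higher in M1 in all 15 mice, with a change of 1.57 (SE 0.0603, adjusted p = 2.24e-14). It overlaps *Ccdc122* on the opposite strand. Of 21 tested genes of purine salvage, interconversion and the purine nucleotide cycle 10 rose and 9 fell, and the median of 0.09 was 0.00 without TMM. These counts were near the 39.4% and 41.6% of all tested genes. *Ada*, adenosine deaminase, rose from 5.29 to 25.1 CPM (2.30, SE 0.0751, adjusted p = 1.97e-15), *Pnp2* from 1.45 to 8.08 CPM (2.60) and *Adk*, adenosine kinase, from 26.3 to 36.4 CPM (0.40). No counted gene was matched to the name *Pnp*, so that the value of *Pnp2* does not stand for it. The genes that turn IMP into adenylosuccinate fell, *Adssl1* from 132 to 41.3 CPM (-1.67, SE 0.0459, adjusted p = 1.78e-16) and *Adss* from 100 to 62.6 CPM (-0.74), and so did *Ampd3*, which returns AMP to IMP, from 64.2 to 39.6 CPM (-0.85), whereas *Adsl* rose by 0.26. In de novo synthesis 2 of 11 genes rose and 6 fell, with *Pfas* at -0.46 and *Prps1* at -0.49. *Upp1*, uridine phosphorylase, rose from 0.227 to 75.2 CPM (8.56).

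Lysosomal genes fell more than they rose, with 18 of 28 hydrolases lower, 10 higher and a median of -0.28. The cysteine proteases diverged, with *Ctsc* (4.01), *Ctsh* (1.67) and *Ctss* (0.28) higher and *Ctsl* from 3170 to 484 CPM (-2.73, SE 0.0508, adjusted p = 1.16e-18), *Ctsk* (-3.23) and *Ctsb* (-0.75) lower. V-ATPase subunits fell in 11 of 18 cases. *Atp6v0d2* fell from a median of 487 to 19.4 CPM (-4.59, SE 0.21, adjusted p = 1.79e-12) and *Atp6v0a1* from 659 to 137 CPM (-2.21), while the isoform *Atp6v0a2* rose from 64.6 to 170 CPM (1.31).

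Oxidative stress genes driven by NRF2 fell in 14 of 17 cases, with a median of -0.77. *Hmox1*, haem oxygenase, ranged from 430 to 1850 CPM in M0 (median 930) and from 190 to 550 CPM in M1 (median 258), a change of -1.72 (SE 0.16, adjusted p = 2.46e-08). *Nqo1* fell (-1.79), *Slc7a11*, the cystine transporter gene, from 6.77 to 1.04 CPM (-2.12), *Cat* from 540 to 209 CPM (-1.42) and *Nfe2l2*, which encodes NRF2, by -0.62. The exceptions were *Prdx5* (1.85) and *Sod2* (0.89), both mitochondrial. In p284R replicates 3, 4 and 5 the paired differences of *Sod2* were 2.01 to 2.09, against 0.1 to 1.02 in the other mice. Those of *Slc7a11* were -0.75 to -0.34 there, against -3.62 to -1.14 in the other mice. The cause was not tested. ATF4 stress genes rose in 11 of 15 cases, with a median of 0.58, among them *Psat1* from 41 to 154 CPM (1.96), *Mthfd2* (1.85) and *Nupr1* (2.03), whereas *Slc7a11*, on both lists, and *Atf3* fell. Of 19 genes of the BCL2 family and death receptors 14 rose, including *Fas* (1.66), *Bak1* (1.63) and *Bid* (1.38), and *Bcl2l11*, which encodes BIM, fell from 190 to 90.1 CPM (-1.15).

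Ribosomal protein genes differed between compartments. Of 73 tested cytosolic members 44 fell and 5 rose, with a median of -0.20, and of 77 mitochondrial members 65 rose and 3 fell, with a median of 0.34. The mitochondrial genes had *Mrpl47* at the top (1.30) and *Mrps6* at the bottom (-0.80). Cytosolic ribosomal proteins have many processed copies in the genome, so that single values, such as *Rpl10a* at -1.31, are uncertain.

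Mitosis genes fell over all mice and rose in those numbered 2. Over all 15 mice 18 of 24 mitosis genes fell, 1 rose (*Tpx2*, 0.50) and 5 were not called, with a median of -0.75. *Mki67*, the proliferation marker, ranged from 53.2 to 115 CPM in M0 (median 95) and from 23.1 to 74.5 CPM in M1 (median 34.4), a change of -1.16 (SE 0.179, adjusted p = 1.48e-05). In the 3 mice numbered 2, all 24 members were higher on average in M1, 23 of them called in those 3 pairs, and the summed level was 468 to 616 CPM in M0 and 778 to 940 CPM in M1. In the other 12 mice the M1 sum was 278 to 546 CPM, and the median of the list was -0.50, -1.11, -1.19 and -1.53 for the mice numbered 1, 3, 4 and 5. Without the mice numbered 2, the 24 genes gave 22 fallers. Of 26 DNA replication genes 11 were lower and 5 higher over all mice, a share of fallers close to the 41.6% of all tested genes. Without the mice numbered 2, 19 were lower and 3 higher, and in those mice alone 21 were higher. The mice numbered 1 gave 9 higher and 7 lower, with a median of 0.05, and those numbered 3, 4 and 5 medians of -0.36, -0.54 and -0.75. When 1 mouse was left out, the fallers of this list numbered 8 to 14, with 8 without p254I replicate 5, p254V replicate 4 or 5 or p284R replicate 3, 4 or 5, and 13 or 14 without a mouse numbered 2.

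Other genes moved with the replicate number too. An F test of the M1 response across the 5 numbers called 2723 genes (22.6%), and 4385 had an unadjusted p under 0.05. It was led by *Cenpe* (adjusted p = 2.61e-06) and *Cd200r4*, and 23 of the 24 mitosis genes were called, against none of the 36 antiviral genes. The antiviral list still had medians of 1.9, 1.52, 2.02, 1.67 and 2.65 for the mice numbered 1 to 5. All 36 were highest in M0 in p254I replicate 4, which adds to the spread within number 4. The F test was not run without that mouse, so that it does not show an even antiviral response. *Cxcl9* was 978 to 1780 CPM in the M1 libraries of the mice numbered 2, below 11 of the other 12 M1 libraries, and its F test gave an adjusted p of 0.102. *Gbp2* lay between 8030 and 9830 CPM in every M1 library, and its response still differed by number (adjusted p = 0.00393), being 6.35 on average in the mice numbered 1 and 8.46 in those numbered 5. The labels do not say what the number means, so that a day of culture, a litter or a batch of reagents cannot be told apart, and its part in the results was not tested. The *Cdk1* promoter is shown as an example of the mitotic set, with CCAAT boxes (inverted, ATTGG) and CHR elements (TTTGAA) in capitals.
Cdk1, chr10:69352913-69353012, minus strand: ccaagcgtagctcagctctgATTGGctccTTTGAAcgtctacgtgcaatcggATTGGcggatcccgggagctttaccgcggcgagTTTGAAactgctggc
Of 19 mitosis genes with a matched promoter 15 held a CCAAT box (78.9%) and 8 a CHR element (42.1%), against 40.8% and 12.9% of all tested promoters.

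**Figure D5:**
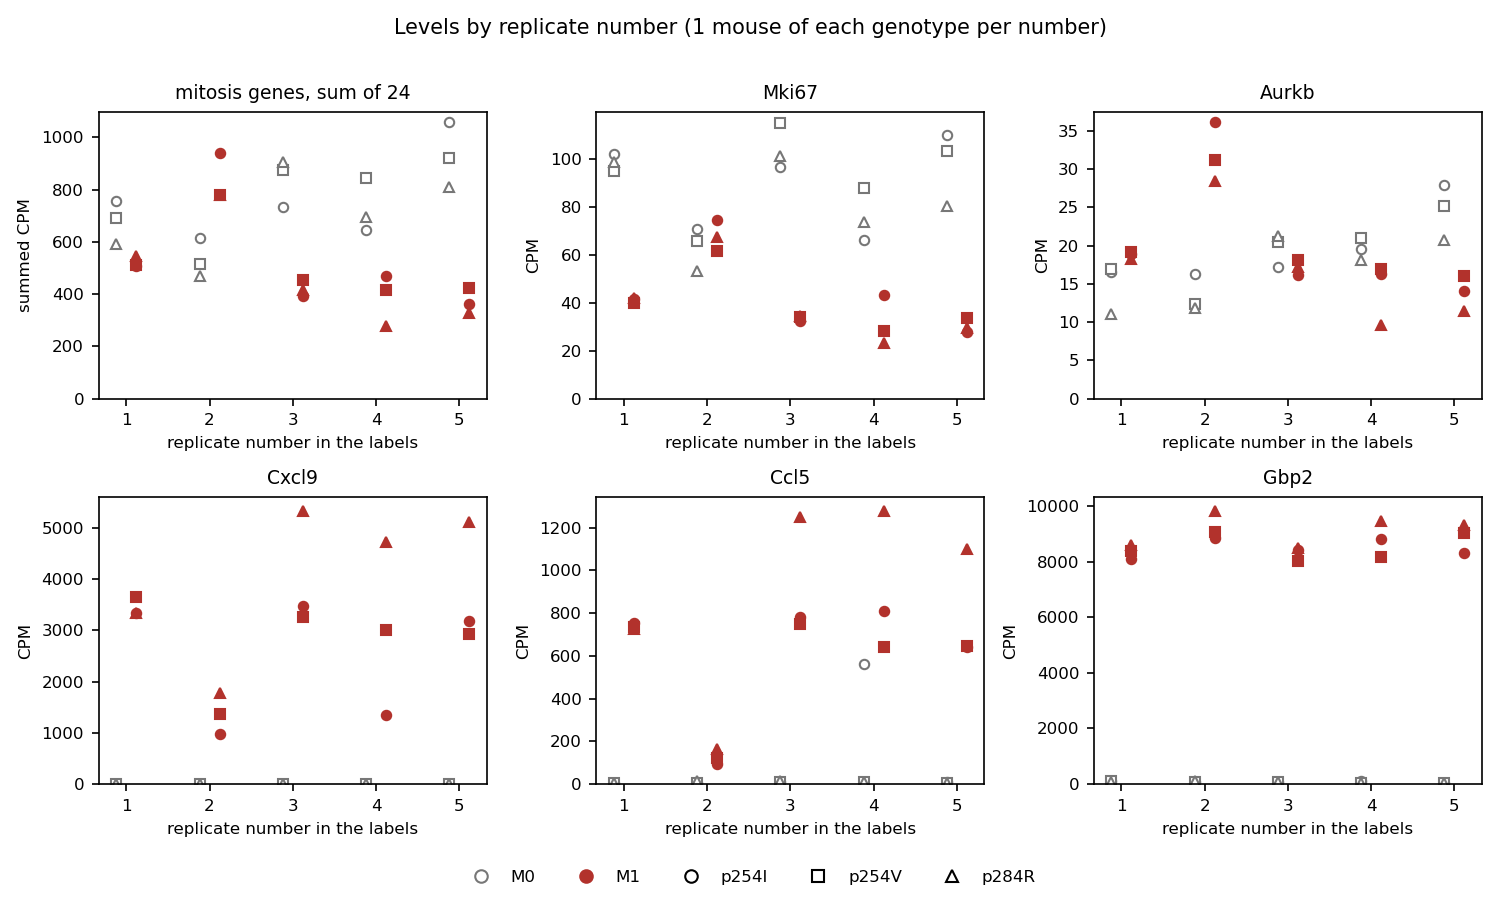
CPM of the summed mitosis list and of 5 genes against the replicate number, open grey for M0 and filled red for M1, with a circle, square or triangle for each genotype. M1 lies above M0 for the mitosis sum in the mice numbered 2 alone (778 to 940 CPM against 468 to 616 CPM), the M1 libraries of the same mice have the 3 lowest *Ccl5* values, and *Gbp2* in M1 is even across numbers.

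Motifs of the interferon pathway were found more often in promoters of the strong risers. Of 9461 tested genes with a matched RefSeq promoter, an ISRE core lay within 250 bases upstream in 3.51%, in 49 of 272 genes (18%) that rose at least 4-fold and in 10 of 367 (2.72%) that fell at least 4-fold. GAS elements were found in 7.11%, 14.7% and 6.27% of the same sets, and the κB consensus in 10.5%, 13.2% and 12.8%. The CHR element, shown above for the mitotic set, was also more frequent in the risers, at 12.9%, 20.2% and 12.5%. The CCAAT box was not, at 40.8%, 39.7% and 39.2%. By list, ISRE cores were found in 6 of 11 matched immunity-related GTPases and 10 of 28 matched antiviral genes. These are counts of letters in a window and were not tested.

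Strong risers were also clustered along the genome. There were 10 runs of 4 or more consecutive tested genes that each rose at least 4-fold, holding 54 genes, and 1 run that fell. Besides those named above, they held *Sp110* and *Sp140* on chromosome 1, the Ifi200 family with *Ifi206* and *Ifi209* on the same chromosome, the Phf11 genes on chromosome 14, *Ly6a*, *Ly6e*, *Ly6i* and *Ly6c2* on chromosome 15, *H2-Q4* to *H2-Q7* on chromosome 17, *Iigp1* and its neighbours on chromosome 18, and the lectin-like receptor genes *Klrk1*, *Klri1*, *Klri2* and *Klra17* on chromosome 6. *Ly6a* (Sca-1) rose from a median of 9.61 to 1800 CPM (7.84) and *Klrk1*, which encodes NKG2D, from 0.354 to 142 CPM (8.80). Most of these runs are families of similar genes, between which reads may have been shared.

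The M1 response differed between genotypes for no gene after adjustment (0.0%). edgeR's F test over the 3 genotypes called 0 genes, with 290 at an unadjusted p under 0.05, and limma-voom also called 0. In counts simulated with known changes for this test, 82% of genes that differed by a log2 of 1 and 45% of those that differed by 0.5 were called. The simulation held no effect of replicate number on the response. Such an effect was called for 2723 genes in the data, so these shares may be too high. DESeq2 called 2 genes for p284R against p254I, *Marcksl1* (adjusted p = 0.00598) and *Slc9a9* (0.0449). When the response was also allowed to differ by replicate number, an alternative added after seeing the data, the F test called 3 genes. *Nr1h3*, which encodes LXRα, had 5.36 to 21.9 CPM in p254I and 7.53 to 39.7 CPM in p284R M1 cells, and its response was higher by 0.68 in p284R. *Gpr84*, a receptor for medium-chain fatty acids, had 1.27 to 4.52 CPM and 2.85 to 19.8 CPM, higher by 1.73, and *Ms4a14* was higher by 0.83. These responses were uneven within p284R. The paired differences of *Gpr84* were 0.82 and 0.51 in replicates 1 and 2 and 2.23 to 2.89 in replicates 3, 4 and 5. In the same order those of *Nr1h3* were -0.98 and -1.55, then 0.16 to 0.48. Those of *Marcksl1* were 0.07 and 0.04, then 0.88 to 1.16. *Cxcl9*, *Nos2* and *Acod1* had their highest M1 levels in p284R, with medians of 4720, 81.6 and 1190 CPM against 3180, 18.9 and 245 CPM in p254I, and the adjusted p of the F test was 1.0 for each. Within p284R the M1 level of *Nos2* was uneven, at 25.6 and 8.61 CPM in replicates 1 and 2. In replicates 3, 4 and 5 it was 81.6, 149 and 131 CPM.

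Against M2 cells of the same mice, 41.3% of 12365 genes were higher and 41.6% lower in M1. *Gbp2b* had a median of 0.574 CPM, *Cxcl9* 0.265 CPM and *Irf1* 109 CPM in M2. Other genes had M2 levels between those of M0 and M1. *Socs1* had 39.6 CPM in M2 and 182 CPM in M1, *Ciita* 63.8 and 426 CPM, and *Cd74* 2000 and 8310 CPM, and M1 exceeded M2 by 2.19, 2.89 and 2.13. *Pdcd1lg2* was higher in M2 (38.2 CPM) than in M1 (6.48 CPM), a difference of -2.45 (SE 0.123, adjusted p = 1.83e-18). *Mmp12*, at 8480 CPM in M2, differed by -8.16 and *Arg1*, at 1030 CPM, by -9.83.

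Markers of other cell types were mostly near the floor in both states. All 7 listed markers each of natural killer cells, erythroid cells and mast cells had medians under 1 CPM in M0 and in M1, and so did 8 of 9 T cell and 5 of 7 B cell markers. The exception among T cell markers was *Cd28*, which fell from a median of 132 to 7.14 CPM (-4.09), while *Cd3e* had at most 0.122 CPM in any library. Neutrophil and granulocyte precursor markers summed to 31.4 to 337 CPM in M0 and 46.9 to 154 CPM in M1, and fibroblast markers to 17.4 to 92.8 CPM and 6.87 to 21 CPM, with all 5 tested members lower. Of the dendritic cell markers *Clec9a* rose from a median of 0.41 to 294 CPM (9.40, SE 0.105, adjusted p = 5.79e-21) and *Xcr1* from 0.0278 to 8.17 CPM (8.17), both markers of the cross-presenting subset. *Flt3*, *Ccr7* and *Itgae* stayed at medians of 0.162, 0.171 and 0.562 CPM in M1, *Siglech* was not called and *Zbtb46* fell to 0.316 CPM. Whether a minor population had a part in these changes was not tested.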

How the data were processed

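Read counts per Ensembl gene for 45 libraries were deposited by the authors as whole, unnormalized counts. TruSeq stranded mRNA libraries were read single-end. The submitters' processing notes name FastQC, Trim Galore, HISAT2, limma and the build mm10, whereas the series text names Cutadapt and STAR, so that the aligner is uncertain. The counting tool, its annotation and its use of strand are not given in the sources used here. A deposited CPM table of the same libraries with fewer genes was not used.

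Gene names were taken by matching IDs to GENCODE M21 (29146 of 29307 matched). Counts of the 30 M0 and M1 libraries were filtered with filterByExpr (12044 genes kept), scaled by TMM and tested in R 4.3.3 with edgeR 4.0.16 (robust quasi-likelihood fit, terms for mouse and polarization, Benjamini-Hochberg adjustment, threshold 0.05). Genotype was tested as an interaction, and M1 against M2 in a fit of all 45 libraries. limma-voom 3.58.1, DESeq2 1.42.0, other scalings and filters, no mouse block, single genotypes and each mouse left out were alternatives. Replicate number terms, leaving out the mice numbered 2 or both mice with libraries that stood apart, and each number alone were added after seeing the data. Paired log2 differences per mouse used a pseudocount of 0.1 CPM.

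The members and gene lists were chosen with earlier results of these data known. Named genes were the 10 strongest risers and fallers of at least 10 CPM that moved the same way in all 15 mice, the 5 largest gains and losses in CPM, the 5 with the widest spread between mice, the extremes of each list and 11 genes chosen by name. All others, including the genes with 0 reads in a state, further list members and the leading genes of the replicate number test, were chosen after their values were seen.

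Total counts were 17239009 to 43740283 per library, which limits the precision of genes near or under 1 CPM. No libraries of the same genotype and state were copies of each other, with a chi-square per degree of freedom of 5.22 to 129 over 60 pairs. The deviations of the M0 and M1 library of a mouse from their group means had a correlation of 0.0196 to 0.479 over 8656 genes. It was over 0.1 in 12 of 15 mice. What libraries of a number share across genotypes was not taken out, so that the correlation does not show pairing by mouse. The pairing rests on the numbers in the sample titles. In counts simulated for M1 against M0, edgeR called 85% of genes changed by a log2 of 0.5 and 100% of those changed by 1. These simulated counts also held no effect of replicate number on the response. Promoters came from RefSeq (GRCm38.p6). Values of a few list members are not reported here.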

Additional observations from a re-analysis of the deposited data

Results flagged for a closer look

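The paired log2 differences (M1 minus M0, pseudocount 0.1 CPM) of 42 genes were examined for mice far from the other 4 of their genotype, in 126 groups of 5, and 12 were found. Chance gives such a gap in about 1 in 20 groups when genes are chosen without regard to their spread. Some genes examined here, among them *Nos2*, *Saa3* and *Ccl5*, were chosen for the widest spread between mice. All groups of a genotype also hold the same 5 mice. The 12 can therefore not be set against that rate. Mice numbered 2 held 7 of the 12. *Gm4841* was low in p254I replicate 2 (8.73, others 9.66 to 10.03) and p284R replicate 2 (8.42, others 9.48 to 9.68). *Ccl5* was low in p254V replicate 2 (4.5, others 6.24 to 6.69) and p284R replicate 2 (3.6, others 6.51 to 7.43). In p254V replicate 2, *Nos2* was also low (5.65, others 7.18 to 7.72), as was *Saa3* (1.12, others 3.94 to 4.57). *B2m* was low in p284R replicate 2 (1.32, others 1.67 to 1.78) and in p254I replicate 4 (0.7, others 1.47 to 1.78), where *Lacc1* was low too (0.91, others 1.5 to 1.71). Among genes that fell, *Pde1c* was less reduced in p254I replicate 5 (-3.81, others -6.07 to -5.56) and more reduced in p284R replicate 4 (-7.0, others -5.91 to -5.59), and *Samd4* less reduced in p254V replicate 5 (-4.53, others -5.7 to -5.37).

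The M1 response of 3 genes differed between genotypes when it was also allowed to differ by replicate number, with p284R minus p254I at 0.68 for *Nr1h3*, 1.73 for *Gpr84* and 0.83 for *Ms4a14*. The F test of edgeR's quasi-likelihood fit gave adjusted p-values of 0.0141, 0.0338 and 0.0208, and no gene was called without the replicate number terms. Within p284R the responses of *Nr1h3* and *Gpr84* were lower in replicates 1 and 2 than in replicates 3, 4 and 5.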

How the results depend on the processing

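The number of called genes stayed within 1.5 times the main count of 9759 under DESeq2 (9707), limma-voom (9766), DESeq2 size factors (9753) and total counts alone (9808), and was 9601 to 9749 with 1 mouse left out. Without the mouse block 9409 genes were called, and the pairing changed no count of calls over all genes by more than 1.5 times. Genes at least 2-fold lower numbered 2373 without a filter on low counts and 857 with at least 10 counts in every library, because 19811 and 10731 genes were then tested. With the 3 mice of 1 replicate number alone, 8587, 8471, 7906 and 7813 genes were called for numbers 1, 2, 3 and 5, and 6413 for number 4 (3131 higher and 3282 lower), and the cause was not tested. For the genotype difference in response, DESeq2 called 2 genes for p284R against p254I. With replicate number terms 3 genes were called over the 3 genotypes, 3 for p284R against p254I and 1 for p284R against p254V, and the cause was not tested. Of 10095 fold changes of named genes under 28 settings, 75 lost and 43 gained a call and 2 reversed, both of *Marcksl1* (not called in the main fit), at -0.39 in p254I alone and -0.2 in p254V alone. List counts moved by over 1.5 times in 142 of 3158 cases. By mouse left out, glycolysis fallers went from 1 to 2 (without p254I or p254V replicate 2), STAT, IRF and NF-κB fallers from 2 to 4 and complement fallers from 1 to 2 (both without p284R replicate 5). Genes under 1 CPM rest on fewer than 43.7 reads per library.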
